A study of Mus musculus with 2 samples.

Results

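A small set of splenic natural killer (NK) cells that carried transcripts of the transcription factor gene Batf3, most of them together with the CD3 chain genes Cd3d or Cd3g, was described from single-cell 3' RNA sequencing. Cells first had to pass a gate on the counts: at least 500 genes, at most 10% of unique molecular identifiers (UMIs) from mitochondrial genes, a UMI of the NK receptor genes Ncr1 or Klrb1c, 0 UMIs of Cd3e, Cd79a, Ms4a1 and Csf1r, and at most 1 UMI of Tmem176a and Tmem176b together. Members of the set then needed at least 1 UMI of Batf3 and a UMI of at least 2 of 5 partner genes, Gpr55, Cd63, Cd3d, Cd3g and Cd160. This gave 206 members among 9470 NK-gated cells, out of 11607 cells that passed the filters. There were 120 members among 4576 NK-gated cells in the dietary restriction (DR) library and 86 among 4894 in the control library. The remaining 4456 DR and 4808 control cells are called the other NK-gated cells below.

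The study asked how restricting the diet of mice changes their NK cells, with Eomes, a T-box transcription factor, named in its title. NK cells were isolated by flow cytometry from spleens of DR mice and of normally fed control mice, with 1 library per group. Strain, age, sex and number of the mice, any pooling of animals, the feeding regimen and the sorting gate are not stated in the labels. The DR library contributed 42134212 UMIs over 6287 barcodes (median 5782 per barcode), and the control library 44526828 UMIs over 5702 barcodes (median 7151.5). With 1 library per group no difference between DR and control had a replicate check, no test was possible, and cells are not replicates. Intervals are exact at 95% and cover counting error only.

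BATF3 is a basic leucine zipper factor of the AP-1 superfamily that pairs with JUN proteins and is best known for the development of type 1 conventional dendritic cells. CD3 delta, gamma and epsilon chains normally assemble with the T cell receptor and its zeta chain on T cells. NK cells lack a rearranged T cell receptor at the surface and signal through adaptors such as CD3 zeta, FcRgamma and DAP12, and as they mature in the mouse spleen they lose CD27, gain CD11b (encoded by Itgam) and load their granules with granzymes and perforin.

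Levels are given as counts per 1000000 UMIs (CPM) of the summed cells. The 6 genes that chose the members are described first, with no comparison drawn from them. Batf3 (chr1:191097847-191108945, plus strand, build GRCm38) stood at 307 CPM in DR members and 325 CPM in control members, and at 2.81 and 2.07 CPM in the other NK-gated cells of the DR and control libraries. Members held 83.9% of all Batf3 UMIs of NK-gated cells in the DR library and 82.9% in the control library. A member carried a median of 3 Batf3 UMIs in the DR library, with a range of 1 to 14, and of 3.5 in the control library, with a range of 1 to 17. Cd3d, which encodes CD3 delta (chr9:44981786-44987339, plus strand), stood at 401 CPM in DR members and 345 CPM in control members, against 20.7 and 22.6 CPM in the other cells. Cd3g, which encodes CD3 gamma (chr9:44969572-44980431, minus strand), stood at 233 and 264 CPM in DR and control members, against 19.2 and 13.8 CPM. Gpr55, a receptor for lysophosphatidylinositol, stood at 90.4 CPM in DR members and 131 CPM in control members. Cd63, a tetraspanin of lysosomes and granules, stood at 97.4 and 98.7 CPM, and Cd160, a receptor that binds HVEM and MHC class I molecules, at 720 and 766 CPM. Because a Cd160 UMI was present in 99.2% of DR and 98.8% of control members, the rule came close to asking for Batf3, Cd160 and 1 further partner gene.

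Cd3d and Cd3g lie back to back, and their promoters are printed with that of Batf3 because these 3 genes give the set its name. The sequences are the 250 bases before each RefSeq start site on GRCm38.p6, written 5' to 3' on the gene's own strand, for chr1:191098164-191098413 (plus, Batf3), chr9:44981536-44981785 (plus, Cd3d) and chr9:44980432-44980681 (minus, Cd3g). The Batf3 window lies inside the Batf3 gene span given above, because that span, from GENCODE, begins upstream of the RefSeq start site. Capitals mark a match to 1 of 5 motifs searched on both strands.
Batf3: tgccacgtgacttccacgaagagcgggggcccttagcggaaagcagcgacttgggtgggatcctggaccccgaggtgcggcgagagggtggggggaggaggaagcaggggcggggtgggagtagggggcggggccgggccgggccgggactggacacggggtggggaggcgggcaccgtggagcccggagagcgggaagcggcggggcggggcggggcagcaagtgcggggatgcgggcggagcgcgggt
Cd3d: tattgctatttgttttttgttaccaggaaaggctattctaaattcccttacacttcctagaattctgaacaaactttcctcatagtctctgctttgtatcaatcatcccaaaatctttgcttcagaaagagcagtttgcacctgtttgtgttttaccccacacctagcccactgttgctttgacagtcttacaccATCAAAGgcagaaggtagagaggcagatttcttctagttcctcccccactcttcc
Cd3g: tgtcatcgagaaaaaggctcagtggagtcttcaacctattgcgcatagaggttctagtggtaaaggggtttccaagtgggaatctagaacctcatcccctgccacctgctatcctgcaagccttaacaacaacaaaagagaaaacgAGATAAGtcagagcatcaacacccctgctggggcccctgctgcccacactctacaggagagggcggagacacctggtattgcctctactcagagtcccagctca
The start sites of Cd3d and Cd3g are 1355 bases apart and the genes are transcribed away from each other. The motif for AP-1 was TGANTCA, the T-box motif was TCACACC, the motif of TCF and LEF factors was ATCAAAG, the RUNX motif was TGTGGTT and the GATA motif was AGATAAG. The Cd3d window held 1 TCF and LEF match, a motif present in 3.205% of all 32851 promoter windows. The Cd3g window held 1 GATA match, present in 2.737% of windows, and the Batf3 window held none of the 5. AP-1, T-box and RUNX letters occur in 6.749%, 3.333% and 4.396% of windows and were in none of these 3 windows.

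The rule does not ask for a Cd3 chain gene, so the members that carry one were counted. Cd3d or Cd3g was detected in 93 of 120 DR members and 68 of 86 control members, and both genes were detected in 56 and 45. Cd3d alone was detected in 32 DR and 16 control members, Cd3g alone in 5 and 7, and neither in 27 and 18. The label of Cd3-chain expression thus held for most members and failed for 22.5% of DR and 20.9% of control members. Of the 154 DR and 116 control NK-gated cells with a Batf3 UMI, 77.9% and 74.1% were members. Among cells without Batf3, 6.17% in DR and 6.49% in control had at least 2 partner genes. Both are unthinned counts of genes of the rule, given as description only. Detection depends on depth and on free RNA. As a description of genes that chose the members, cells were thinned to 3000 UMIs and compared with B-like cells, which should lack these genes (at least 2 UMIs of Cd79a, a UMI of Ms4a1, none of Ncr1 or Klrb1c; median of 6631 UMIs in DR and 8417 in control). After thinning, Cd3d was detected in 50% of DR and 47.0% of control members, in 3.46% and 3.26% of the other NK-gated cells, and in 2.11% and 0% of B-like cells. For Cd3g the shares were 35.0% and 42.2% in members, 2.78% and 1.94% in the other cells, and 1.32% and 0% in B-like cells. For Batf3 they were 67.5% and 59.0%, 0.424% and 0.154%, and 0% in the B-like cells of either library. Without thinning, Cd3d was detected in 73.3% of DR and 70.9% of control members. The gap between members and the other cells follows from the rule for these 3 genes.

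Just inside the rule, the 31 DR and 16 control members with exactly 2 partner genes stood at 273 and 355 CPM of Batf3, 103 and 64.6 CPM of Cd3d and 149 and 237 CPM of Kit. Just outside it, the 28 DR and 20 control Batf3 cells with exactly 1 partner gene stood at 233 and 250 CPM of Batf3, with no Cd3d UMI, and at 145 and 116 CPM of Kit. Cells without Batf3 but with at least 3 partner genes, 95 in DR and 91 in control, stood at 363 and 456 CPM of Cd3d and 151 and 165 CPM of Kit. Across all 9470 NK-gated cells the 8 genes whose log-scaled counts went most closely with Batf3 were Gpr55 (Pearson r = 0.43), Id3 (0.41), Cd3d (0.37), Cd63 (0.34), Dll1 (0.32), Cd3g (0.30), Cd160 (0.30) and Ltb (0.28). These are descriptions over cells of 2 libraries that share depth, and 5 of the 8 are partner genes of the rule.

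**Figure D1:**
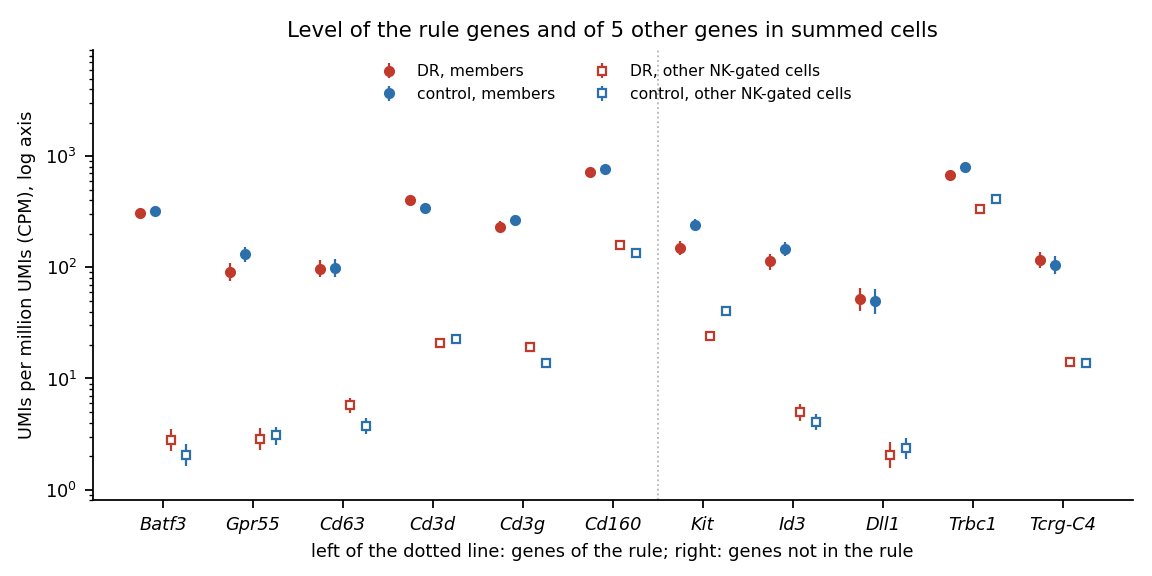
Level (CPM, log axis) of the 6 genes of the rule and of 5 other genes in the summed members (filled circles) and the summed other NK-gated cells (open squares) of the DR library (red) and the control library (blue), with exact 95% Poisson intervals. Left of the dotted line the members were chosen by the genes shown, so the gap there is no finding; Kit, Id3, Dll1, Trbc1 and Tcrg-C4, which the rule did not use, also stood higher in members of both libraries.

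Members lay together when NK-gated cells were clustered without the 6 genes of the rule. Of 14 clusters, cluster 4 with 699 cells held 113 of the 120 DR members (94.2%) and 71 of the 86 control members (82.6%). Members made up 26.3% of that cluster, whose leading genes outside the rule were Tcrg-C4, Ckb, Asb2, Id3, Podnl1, Il7r, Tesc, Klk8, Gm36723 and Ltb. In the neighbour graph, 62.1% of the links of DR members and 54.6% of those of control members led to a member, against 1.23% and 0.894% of the links of the other cells. Links of a cell to itself, which raise the shares of members, were not taken out. Outside cluster 4, the control members included 5 in cluster 10, led by Gm47283 and Rbm38, and 3 in cluster 14, led by histone and mitosis genes such as Hmmr and Birc5, where no DR member lay.

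**Figure D2:**
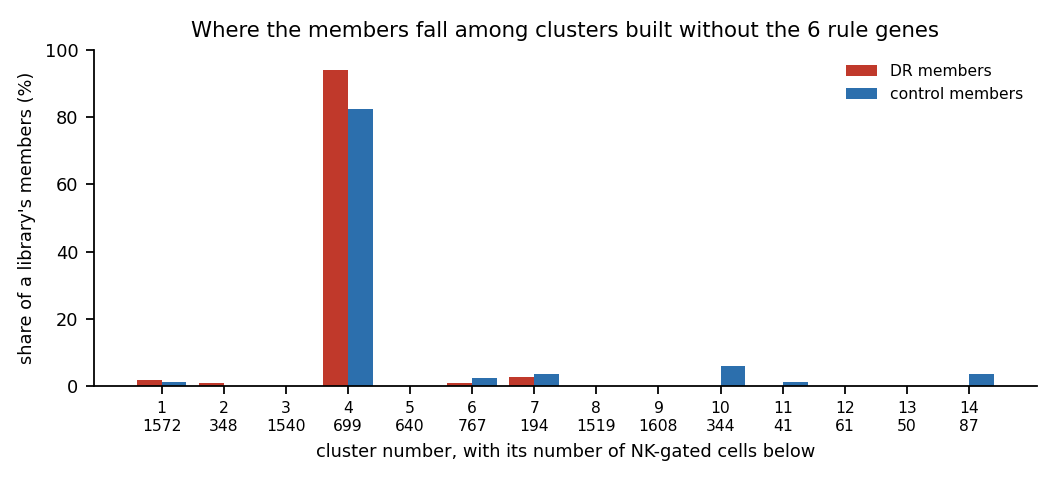
Share of each library's members (%) in each of 14 clusters of NK-gated cells, built without the 6 genes of the rule, for DR members (red) and control members (blue); the number of NK-gated cells of each cluster stands under its number. Most members of both libraries lie in cluster 4, at 94.2% in DR and 82.6% in control.

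Members were deep cells. Their median was 10081.5 UMIs in DR and 12614 in control, against 5451.5 and 7136.5 in the other NK-gated cells. The rule itself asks for several detected genes. Mitochondrial genes made up a median of 3.35% of the UMIs of DR members and 2.45% of control members, against 2.43% and 1.61% in the other cells. Scrublet's automatic threshold marked no cell in either library and so did not work; among the 364 DR and 243 control cells with the highest scores were 4 DR and 2 control members. The libraries shared 12 cell barcodes, and none of these was a member. In the DR library 1293637 UMIs, and in the control library 1164794 UMIs, came from members.

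Members were then compared with the other NK-gated cells of their own library, leaving out the genes of the rule and the gate. A call needed a ratio of at least 1.5 either way, with an interval that leaves out 1, in both libraries and in the same direction. Genes were described where the members of the 2 libraries averaged 20 CPM or more. Of 5757 such genes 298 were higher (5.18%) and 319 were lower (5.54%). Because the level was set on members, genes high in members alone are described and genes high in the other cells alone are not. This holds for the list counts below as well. With the level set over members and others together, 236 genes were higher and 414 lower. Only 3 genes were called in opposite directions in the 2 libraries. The median described gene stood at a log2 ratio of -0.09 in DR and -0.04 in control.

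Among genes of the T cell receptor complex, the constant region gene Trbc1 was higher in members, at 674 CPM in DR and 795 CPM in control members against 332 and 413 CPM in the other cells, a log2 ratio of 1.02 (0.92 to 1.12) in DR and 0.94 (0.85 to 1.04) in control. Every member had a Trbc1 UMI. After thinning, the shares with Trbc1 were 78.3% of DR and 95.2% of control members, 51.3% and 61.8% of the other cells and 3.17% and 3.70% of B-like cells. Tcrg-C4, a gamma chain constant gene, was also higher, at 116 and 106 CPM in DR and control members against 14.2 and 13.7 CPM. Trbc2, the other beta chain constant gene, was not called. Its thinned shares were 35.0% of DR and 44.6% of control members, and 31.1% and 36.2% of the other cells. The alpha chain gene Trac was near the floor, at 15.5 CPM in DR and 4.29 CPM in control members. The delta chain gene Trdc stood at 77.3 and 42.1 CPM in members and at 88.0 and 75.7 CPM in the other cells, and passed as lower in control alone. Cd247, which encodes the zeta chain that NK cells also use, was lower in members, at 68.8 and 94.4 CPM against 113 and 149 CPM. Cd3e was at 0 by the gate, and only 3 DR cells and no control cell outside the gate carried Cd3e together with Batf3 and at least 2 partner genes. Of the 5 described genes of this list that the rule did not use, 2 were higher and 1 was lower. Of 18 adaptor and proximal signalling genes 1 was higher and 1, Cd247, was lower. Fcer1g, which encodes FcRgamma, stood at 1851 and 1757 CPM in members and at 2733 and 2725 CPM in the other cells, and passed as lower in control alone. Tyrobp, which encodes DAP12, stood at 3288 and 3128 CPM against 3435 and 3565 CPM, with no call.

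Among 20 innate lymphocyte transcription factor genes, 4 were higher and 5 lower in members. Id3, an inhibitor of E proteins (chr4:136143497-136145755, plus strand), showed one of the largest ratios of all described genes. It stood at 113 CPM in DR and 147 CPM in control members, against 4.98 and 4.08 CPM in the other cells, a log2 ratio of 4.50 (4.15 to 4.85) and 5.17 (4.85 to 5.49). The HMG-box factor genes Tcf7 and Tox were higher, Tcf7 at 214 and 305 CPM in members against 72.5 and 58.4 CPM, and Tox at 120 and 149 CPM against 40 and 52.7 CPM. Bcl11b, a zinc finger factor of T cells and innate lymphoid cells, was at 27.1 and 32.6 CPM against 10.4 and 8.78 CPM. The lower genes were Klf2, a factor for lymphocyte recirculation, at 144 and 209 CPM in members against 1353 and 1547 CPM, Zeb2 at 89.7 and 131 CPM against 470 and 701 CPM, Tbx21, which encodes T-bet, at 60.3 and 62.7 CPM against 148 and 153 CPM, Runx2 and Hhex. Eomes was not called, at 270 and 308 CPM in DR and control members and 320 and 329 CPM in the other cells, with log2 ratios of -0.25 and -0.09. Id2, Runx3 and Ets1 were not called either.

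Of 6 described genes of BATF, AP-1 and IRF factors outside the rule, Batf was higher and Irf8 lower. Batf stood at 78.1 CPM in DR and 49.8 CPM in control members, against 31.4 and 31.6 CPM in the other cells, and the control ratio turned round among cells of 5000 to 12000 UMIs, to a log2 ratio of -0.76. Irf8, a factor that acts with BATF3 in dendritic cells, was lower, at 143 and 153 CPM against 457 and 561 CPM. Irf4, another partner of BATF factors, lay below the level for description, at 13.1 and 12 CPM in members and 0.554 and 1.19 CPM in the other cells. Jund stood at 554 CPM in members of either library and at 593 and 568 CPM in the other cells. The dendritic cell markers Xcr1 and Clec9a had no UMI in any member.

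Genes of immature NK cells were higher in members as a group. Of 10 described genes of that list, 9 were higher and none lower, with a median log2 ratio of 1.49 in DR and 2.05 in control. Kit, the stem cell factor receptor (chr5:75574916-75656722, plus strand), stood at 149 CPM in DR and 240 CPM in control members against 23.9 and 40.4 CPM. Cd7, a surface molecule of T and NK cells, stood at 2340 and 2363 CPM against 536 and 435 CPM. Ltb, a lymphotoxin subunit, stood at 749 and 731 CPM against 176 and 109 CPM. Il7r, the interleukin 7 receptor, stood at 170 and 140 CPM against 80.3 and 40.2 CPM, and the adhesion gene Emb, the chemokine receptor gene Cxcr3 and the protease inhibitor gene Ctla2a were higher too. Cd27 passed in control alone, at 183 CPM in DR and 179 CPM in control members against 127 and 85.7 CPM. By cell, 77.5% of DR and 72.1% of control members had Cd27 and no Itgam UMI, against 20% and 13.9% of the other cells, and 0.833% and 2.33% had Itgam and no Cd27 UMI, against 35.0% and 47.7%.

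Genes of mature NK cells were lower as a group, 9 of the 9 described, with a median log2 ratio of -3.09 in DR and -2.64 in control. Itgam stood at 12.4 CPM in DR and 38.6 CPM in control members, against 182 and 242 CPM in the other cells. Ly6c2, a surface antigen, stood at 25.5 and 42.9 CPM against 712 and 578 CPM, and S1pr5, a receptor for exit from lymph nodes and marrow, at 18.6 and 36.9 CPM against 158 and 230 CPM. Klrg1 and Cx3cr1 lay below the level for description, Klrg1 at 5.41 and 24.0 CPM against 108 and 226 CPM and Cx3cr1 at 0.773 and 14.6 CPM against 21.8 and 125 CPM.

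Of 10 granule effector genes, 6 were lower and 2 higher. The granzyme gene Gzma stood at 909 CPM in DR and 1612 CPM in control members, against 12220 and 13923 CPM in the other cells, a log2 ratio of -3.75 (-3.83 to -3.67) and -3.11 (-3.18 to -3.04). Gzmb stood at 43.3 and 106 CPM against 604 and 808 CPM, and the perforin gene Prf1 at 148 and 208 CPM against 985 and 1230 CPM. The median member had 0.70 Gzma UMIs per 10000 UMIs in DR and 1.52 in control, against 132 and 155 in the other cells. No Gzma UMI was found in 45.0% of DR and 23.3% of control members, against 2.63% and 1.62% of the other cells. The protease inhibitor genes Serpinb9 and Serpinb6b and the granule gene Nkg7 were the other lower ones. The higher ones were Gzmm, at 25.5 and 46.4 CPM against 13.9 and 20.2 CPM, and the lysosomal membrane gene Lamp1, at 214 and 235 CPM against 136 and 122 CPM. Other genes with the largest ratios downwards were the cytoskeletal gene Vim, the calcium-binding protein gene S100a6, the galectin gene Lgals1, the chymase gene Cma1, the fibrinogen-like gene Fgl2 and Il18r1, a subunit of the interleukin 18 receptor. Vim stood at 50.2 CPM in DR and 82.4 CPM in control members against 737 and 886 CPM, and Il18r1 at 30.1 and 16.3 CPM against 308 and 197 CPM.

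Most described cytokine and chemokine genes went the other way. Of 9 described, 6 were higher and 1 lower. Summed over all 12 genes of the list, however, levels were lower in members, at 15784.2 CPM in DR and 15610.5 CPM in control. The other cells stood at 18472.4 and 19325.3 CPM. The direction thus holds for the count of genes and not for their summed RNA. Tnf stood at 26.3 CPM in DR and 22.3 CPM in control members, against 2.88 and 2.28 CPM. Csf2, which encodes GM-CSF, stood at 37.9 and 61.0 CPM against 6.87 and 7.35 CPM. The chemokine genes Ccl3, at 255 and 458 CPM against 81.1 and 148 CPM, Ccl4, at 869 and 974 CPM against 249 and 354 CPM, and Xcl1, at 1100 and 1239 CPM against 328 and 338 CPM, were higher, as was Ltb. Ifng, which encodes interferon gamma, was the lower one, at 24.0 and 24.9 CPM against 56.6 and 63.2 CPM.

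Of 6 described checkpoint and related receptor genes besides Cd160, 5 were higher and none lower. Lag3, a receptor for MHC class II, stood at 41.7 CPM in DR and 54.9 CPM in control members against 5.57 and 5.09 CPM. Cd96 and Cd226, a receptor pair that shares the ligand CD155, were both higher, Cd226 at 123 and 117 CPM against 72.4 and 55.3 CPM. Tnfsf14, which encodes the HVEM ligand LIGHT, stood at 38.7 and 41.2 CPM against 20.2 and 15.2 CPM, and Cd200r1 was the fifth. Crtam, an adhesion receptor of cytotoxic cells, stood at 166 and 197 CPM against 31.5 and 33.4 CPM and was, with Cd226, called higher among 13 activating receptors. The gate genes Ncr1 and Klrb1c stood at 1027 and 1065 CPM against 1077 and 1241 CPM and at 744 and 710 CPM against 1201 and 1126 CPM. Klrk1, which encodes NKG2D, stood at 1504 and 1338 CPM in members and 1657 and 1490 CPM in the other cells, and was not called. Among 10 inhibitory receptors Lilrb4a, Klra6 and Cd200r1 were higher and Klra9 and Klrb1b lower.

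Receptors for cytokines were split, with 5 of 16 higher (Kit, Il7r, Il4ra, Il21r and Il27ra) and 5 lower (Il18r1, Il18rap, Ifngr1, Il12rb2 and Il10ra). Il4ra stood at 95.9 CPM in DR and 59.2 CPM in control members against 24.7 and 19.0 CPM. Il18rap stood at 54.1 and 65.2 CPM against 349 and 341 CPM, and Ifngr1 at 167 and 192 CPM against 702 and 673 CPM. Among 16 homing and adhesion genes 4 were higher, with Cxcr3, Emb and the retention gene Cd69 among them, and 7 were lower, with the integrin genes Itgam, Itgb7, Itga2, Itga4, Itgb1 and Itgb2 among them. Among 10 lipid and related G protein coupled receptors, Gpr18 and Gpr132 were higher, Gpr18 at 172 and 124 CPM against 49.6 and 41.3 CPM, and S1pr5 and S1pr4 lower.

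The largest ratios upwards also included genes that belong to none of the lists. Dll1, a Notch ligand (chr17:15367354-15376872, minus strand), stood at 51.8 CPM in DR and 49.8 CPM in control members, against 2.07 and 2.36 CPM in the other cells, a log2 ratio of 4.65 (4.11 to 5.19) and 4.40 (3.90 to 4.89). The cell adhesion gene Chl1 stood at 34.0 and 48.9 CPM against 2.03 and 2.63 CPM. Chst2, a carbohydrate sulfotransferase, stood at 37.1 and 67.8 CPM against 1.96 and 3.66 CPM. Ddc, the aromatic amino acid decarboxylase, stood at 24.0 and 41.2 CPM against 2.07 and 1.22 CPM. Ccdc136, the troponin gene Tnni1, the calpain gene Capn3, Grtp1, Tmem108 and the ubiquitin ligase adaptor gene Asb2 completed the 12 together with Id3 and Tnf.

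**Figure D3:**
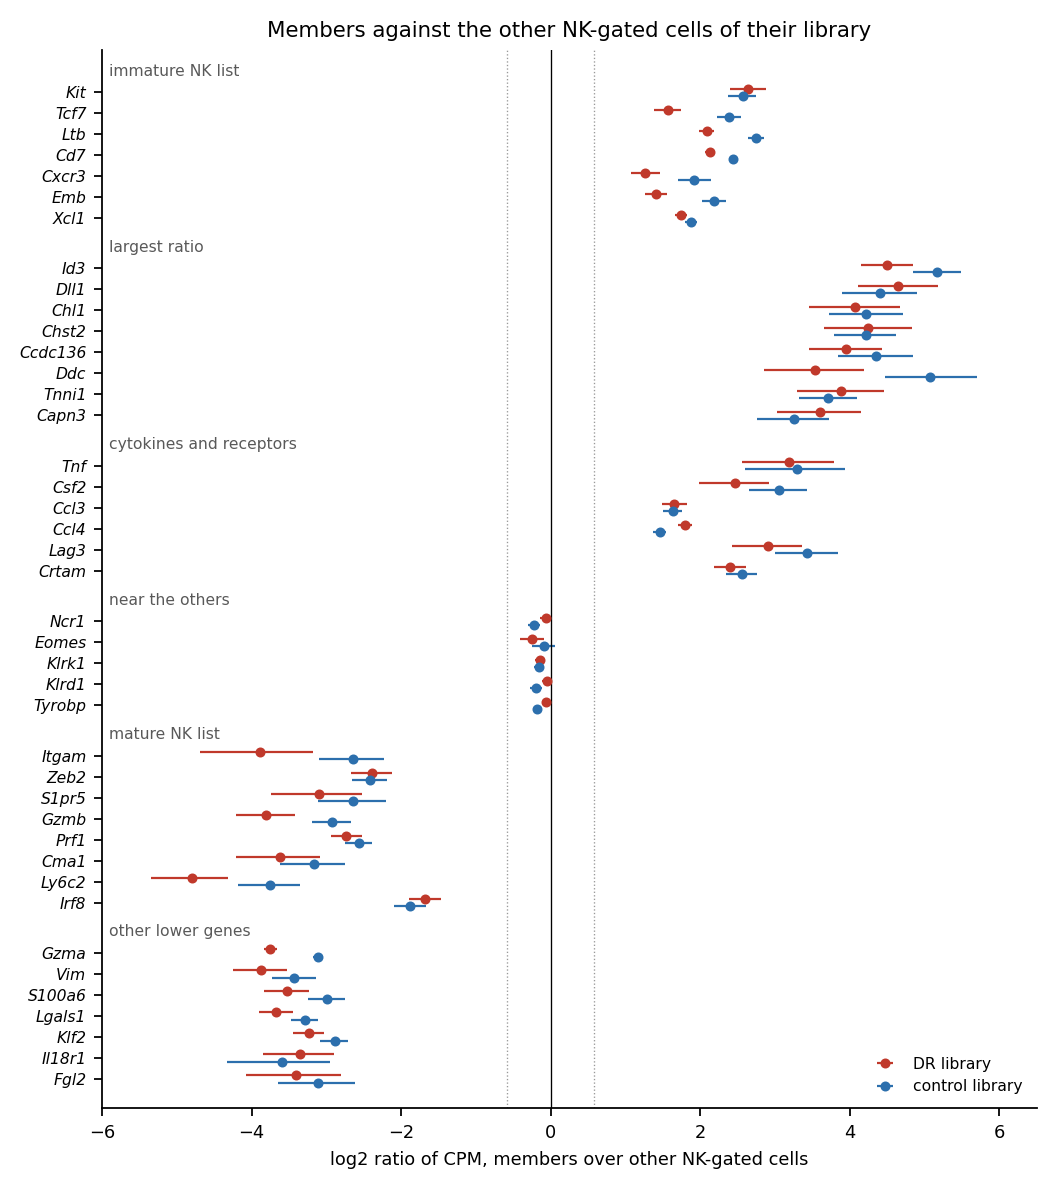
log2 ratio of CPM, members over the other NK-gated cells of the same library, for genes grouped by list, in the DR library (red) and the control library (blue), with exact 95% counting intervals; dotted lines mark a ratio of 1.5 either way. Immature NK genes, the cytokine genes shown and the genes with the largest ratios lie to the right. Mature NK and granule genes lie to the left, and Ncr1, Eomes, Klrk1, Klrd1 and Tyrobp between the dotted lines.

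Markers of other cell types were read in the same way. All 3 described B cell genes outside the gate were higher, Cd74 at 226 CPM in DR and 189 CPM in control members against 67.4 and 25.8 CPM, H2-Aa at 54.1 and 20.6 CPM against 25.8 and 6.92 CPM, and Ighm at 219 and 228 CPM against 121 and 94.5 CPM. Cd79b stood at 8.50 and 3.43 CPM in DR and control members, and Cd79a and Ms4a1 were at 0 by the gate. The part of B cell RNA in the Cd74, H2-Aa and Ighm levels was not tested. Of the 3 described T cell genes outside the rule, 2 were higher and none lower, Trbc1 as above and Bcl11b. The third, the costimulatory receptor gene Cd28, stood at 81.2 and 85.0 CPM in DR and control members against 62.5 and 34.5 CPM and passed in control alone. The whole T cell list, which holds the rule genes Cd3d and Cd3g, summed to 1464 and 1544 CPM in DR and control members against 527 and 556 CPM. Cd3d gave 401 and 345 CPM and Cd3g 233 and 264 CPM of the sums in members, so part of that gap follows from the rule. Cd4 and Themis, of the same list, had no UMI in members, Cd8a stood at 3.87 and 4.29 CPM and Cd8b1 at 6.18 and 0 CPM, and leaving out cells with a Trac UMI left 106 DR and 81 control members with 294 higher and 317 lower genes. Gata2, Mcpt8, Fcer1a and Ms4a2 of mast cells and basophils had no UMI, and Cpa3 had 0.859 CPM in control members alone. Of the 4 described genes of type 1 innate lymphoid cells (ILC1), Il7r, Xcl1, Cd200r1 and Tnfsf10, all were higher. The defining genes Cxcr6 and Zfp683 had no UMI in any member, and Itga1 stood at 3.09 and 0.859 CPM. Cxcr6 was near the floor in the other cells too, at 3.65 CPM in DR and 2.73 CPM in control. Its absence from so few members therefore carries little weight. The gate had also left out cells with at least 2 UMIs of Tmem176a and Tmem176b, which belong to the same list. Of the 2 described genes of other innate lymphoid cells (ILC2 and ILC3), Ahr was higher, at 39.4 and 16.3 CPM against 11.8 and 7.45 CPM. Gata3 passed as lower in control alone, at 64.2 and 43.8 CPM in DR and control members against 78.6 and 71.2 CPM. Il1rl1 of that list had no UMI. What part such cells had in these levels was not tested.

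Members were also set against more alike cells. Other NK-gated cells with Cd27 and without Itgam UMIs numbered 892 in DR and 670 in control; against them 138 genes were higher in members (2.4%) and 165 lower (2.87%), in both libraries. Cells that failed the gate only through at least 2 UMIs of Tmem176a and Tmem176b, genes high in ILC1, numbered 320 and 236; against them 135 genes were higher (2.34%) and 175 lower (3.04%). Of the 298 genes higher than in the other cells at large, 168 were not called against the Cd27 cells. In all, 55 of the 5757 described genes were higher than in each of the 3 groups, among them Id3, Capn3, Chl1, Dll1, Csf2, Ccl4, Crtam, Tox, Gpr18 and Kit. Id3 stood at 13.4 CPM in DR and 15.5 CPM in control Cd27 cells, at 21.6 and 27 CPM in the Tmem176 cells, and at 92.0 CPM in the 235 DR cells with Cd3e and without Ncr1 and Klrb1c. Kit stood at 56.6 and 100 CPM in Cd27 cells and at 96.9 and 137 CPM in Tmem176 cells. Cluster 4 cells that were not members, 281 in DR and 234 in control, were not one of the 3 groups. Kit stood at 162 and 200 CPM in them, against 150 and 265 CPM in members of the cluster, so in DR it was not higher in members. Id3 stood at 44.7 and 40.4 CPM in them against 114 and 144 CPM, and Dll1 at 21.1 and 30.3 CPM against 54.9 and 57.2 CPM. Cd3d, a gene of the rule, stood at 53.0 and 72.0 CPM in Cd27 cells, 9.69 and 28.2 CPM in Tmem176 cells and 983 CPM in the DR Cd3e cells. Vim was lower in members than in either group, which stood at 604 and 606 CPM and at 388 and 536 CPM, and so was Klf2. Tcrg-C4 and Il7r were lower in members than in the Tmem176 cells, which stood at 220 and 207 CPM and at 961 and 1059 CPM. Eomes separated the groups as well, since members and Cd27 cells (286 and 303 CPM) stood above Tmem176 cells (77.9 and 72.2 CPM).

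Members made up 2.62% (2.18 to 3.13) of NK-gated cells in DR and 1.76% (1.41 to 2.17) in control, a ratio of 1.49 (1.12 to 1.99). Members were deeper cells and the libraries differed in depth, so the share was recomputed with depth made more alike. With every NK-gated cell thinned to 3000 UMIs and shallower cells left out, 59 of 4363 DR cells (1.35%, 1.03 to 1.74) and 37 of 4623 control cells (0.80%, 0.564 to 1.10) met the rule, a ratio of 1.69 (1.10 to 2.62). The gate was set on unthinned counts, so only Batf3 and the partner genes were read at 3000 UMIs. Among cells with 5000 to 12000 UMIs, 86 of 2632 DR cells (3.27%) and 34 of 3698 control cells (0.919%) were members, a ratio of 3.55 (2.36 to 5.45). This window kept 86 of the 120 DR members but only 34 of the 86 control members, so its ratio leaves out most control members. The share was higher in DR under all 8 settings plotted, with an interval of the ratio that took in 1 when at least 3 partner genes were asked for, at 1.36 (0.983 to 1.89). The sort and the cell load behind each library are not given in the labels, and their part in the share was not tested.

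**Figure D4:**
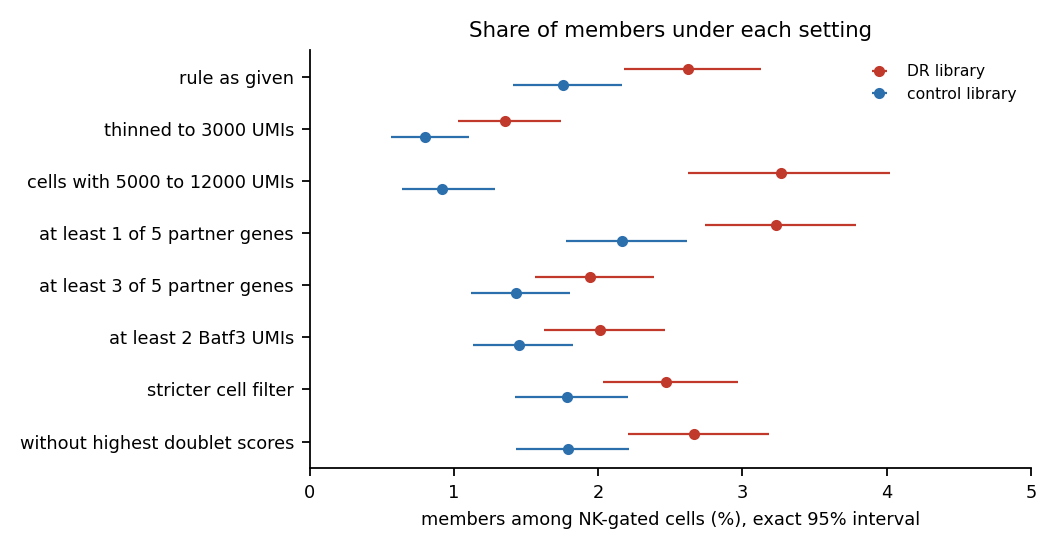
Members as a share of NK-gated cells (%) in the DR library (red) and the control library (blue) under 8 settings of the rule, depth and filters, with exact 95% Clopper-Pearson intervals. The DR point lies right of the control point in each setting, and the intervals are widest apart for cells of 5000 to 12000 UMIs, at 3.27% in DR and 0.919% in control. That window kept 86 of the 120 DR members but only 34 of the 86 control members.

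Within members, DR was compared with control. At the same call of 1.5-fold with an interval that leaves out 1, 97 of 5757 genes were higher in DR members (1.68%) and 343 lower (5.96%), and the median gene stood at a log2 ratio of -0.10. Higher genes made up 22.0% of the calls, and under median-of-ratios scaling, which moved the median to 0.01, they made up 49.6%. In the other NK-gated cells 64 genes were higher and 60 lower. These counts cannot be set against those of members. Members summed to 1293637 UMIs in DR and 1164794 in control, the other cells to 27091426 and 37709436. Counting error alone therefore takes more genes past 1.5-fold in members, and its part in the 440 calls was not tested. A gene called in members alone is not thereby shown to differ from the other cells. Of the 440 genes called in members, 58 were called the same way in the other cells and 2 the opposite way, and 237 of 432 with enough counts had a DR to control ratio that differed from that of the other cells beyond the counting interval. These genes were picked by their ratio in members, which that comparison uses again. The count of 237 is therefore raised by the picking and is given as description, with no share over all described genes beside it.

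Genes higher in DR members included Lilr4b, of the leukocyte immunoglobulin-like receptor family. It stood at 42.5 CPM in DR and 11.2 CPM in control members, a log2 ratio of 1.93 (1.04 to 2.93). The aryl hydrocarbon receptor gene Ahr stood at 39.4 and 16.3 CPM, and Cxcr4, the receptor for CXCL12, at 46.4 and 20.6 CPM. Cirbp, a cold-inducible RNA-binding protein, stood at 257 CPM in DR and 130 CPM in control members, a log2 ratio of 0.99 (0.70 to 1.27). The adaptor gene Sla2, Olfm1, the ubiquitin ligase gene Rnf157 and the glucocorticoid-induced gene Tsc22d3 were higher in the same range. In the other NK-gated cells the log2 ratios of these genes had the same sign, 1.35 for Lilr4b, 0.87 for Cirbp, 0.87 for Cxcr4, 1.35 for Sla2, 1.02 for Rnf157 and 0.65 for Tsc22d3. Stk38, a kinase gene, differed: it stood at 123 and 65.2 CPM in DR and control members and at 151 and 165 CPM in the other cells, so that the ratio in members exceeded that in the other cells by 1.04 (0.64 to 1.43) on the log2 scale. Braf, at 40.2 and 17.2 CPM, and Batf, at 78.1 and 49.8 CPM, also exceeded the other cells, by 1.0 (0.24 to 1.75) and 0.66 (0.17 to 1.14). The class II genes H2-Eb1, at 50.2 CPM in DR and 10.3 CPM in control members, and H2-Aa, at 54.1 and 20.6 CPM, were higher in DR, with log2 ratios of 2.29 and 1.39 against 1.89 and 1.90 in the other cells. A UMI of either class II gene was found in 43 DR and 17 control members, the DR library held 393 B-like cells and the control library 88, and the part of free B cell RNA was not tested. Cxcl10 stood at 81.2 and 1.72 CPM, with 98.1% of its UMIs in DR members from 1 cell.

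Among genes lower in DR members, Kit stood at 149 CPM in DR and 240 CPM in control members, a log2 ratio of -0.68 (-0.96 to -0.41) against -0.76 in the other cells; under median-of-ratios scaling, and without cells with a Trac UMI, it was not called, at log2 ratios of -0.57 and -0.57, just under the call ratio of 1.5 (0.58 on the log2 scale). The complement regulator gene Cd55 stood at 6.96 CPM in DR and 45.5 CPM in control members, a log2 ratio of -2.71 (-3.91 to -1.68) against -0.64 in the other cells. Basp1, a membrane-associated signalling protein, stood at 6.96 and 53.2 CPM, a log2 ratio of -2.94 (-4.13 to -1.92) against -2.26. The Ly49 receptor gene Klra6 stood at 34.0 and 95.3 CPM, with -1.49 in members and -1.17 in the other cells. Csf2, Ccl3, Egr1 and Gzmm were also lower in DR members. Of the rest of the immature NK list only Kit was called, and of its 10 genes none was higher.

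Cell cycle genes were lower in DR members, 9 of the 9 described. Stmn1 stood at 11.6 CPM in DR and 132 CPM in control members, Top2a at 10.8 and 80.7 CPM, and Mki67 at 1.55 and 52.4 CPM. Pclaf and Birc5 had no UMI in DR members; against a floor of 3 UMIs in the DR pool, 2.32 CPM, they were at least 25.2-fold and 17.4-fold lower than in control members, which stood at 58.4 and 40.4 CPM. These calls rest on few cells: with at least 5 UMIs over Mki67, Top2a, Birc5, Ube2c and Cenpf, no DR member (0 of 120, with an exact interval up to 3.03%) and 3 control members (3.49%, 0.725 to 9.86) counted as cycling. Those 3 cells carried 299 of the 328 UMIs of these genes in control members (91.2%), and without them 2 of 5 described cell cycle genes were lower. Among members of 5000 to 12000 UMIs, none of 4 described cell cycle genes was called lower. In the other NK-gated cells 0.247% of DR and 1.31% of control cells met the same count.

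Mature and granule genes were lower still in DR members over all cells, with 5 of the 9 described mature NK genes called lower and none higher. Gzma stood at 909 CPM in DR and 1612 CPM in control members, a log2 ratio of -0.83 (-0.93 to -0.72) against -0.19 in the other cells, and Itgam at 12.4 and 38.6 CPM. These differences went with depth among members. Over 12000 UMIs were found in 32 of 120 DR members and 48 of 86 control members, and those deep members held most of the effector RNA. Members over 12000 UMIs stood at 1619 CPM of Gzma in DR and 2073 CPM in control, against 449 and 208 CPM in members of 5000 to 12000 UMIs. For Vim the values were 113 and 104 CPM over 12000 UMIs and 11.4 and 9.06 CPM from 5000 to 12000, and for Lgals1 239 and 264 CPM and 53.0 and 30.2 CPM. Within 5000 to 12000 UMIs the direction between libraries turned round for Gzma, Gzmb, Ly6c2, Vim, S100a6, Lgals1, Itgam and Cma1, and none of the 5 mature NK genes still described was called lower in DR. That range holds 86 DR and only 34 control members, and the turned ratios are given without intervals. Vim there lay below the 20 CPM level for description in either library, so a turned sign can rest on few UMIs. Kit, Basp1 and Cd55 stayed lower in DR in both depth ranges, Kit at 155 and 235 CPM from 5000 to 12000 UMIs and 140 and 244 CPM above, and Basp1 at 3.78 and 75.5 CPM and 12.2 and 44.9 CPM. Cirbp, Cxcr4 and Olfm1 stayed higher in both, Cirbp at 289 and 172 CPM and 203 and 113 CPM. The part of cell depth in these differences was not tested.

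**Figure D5:**
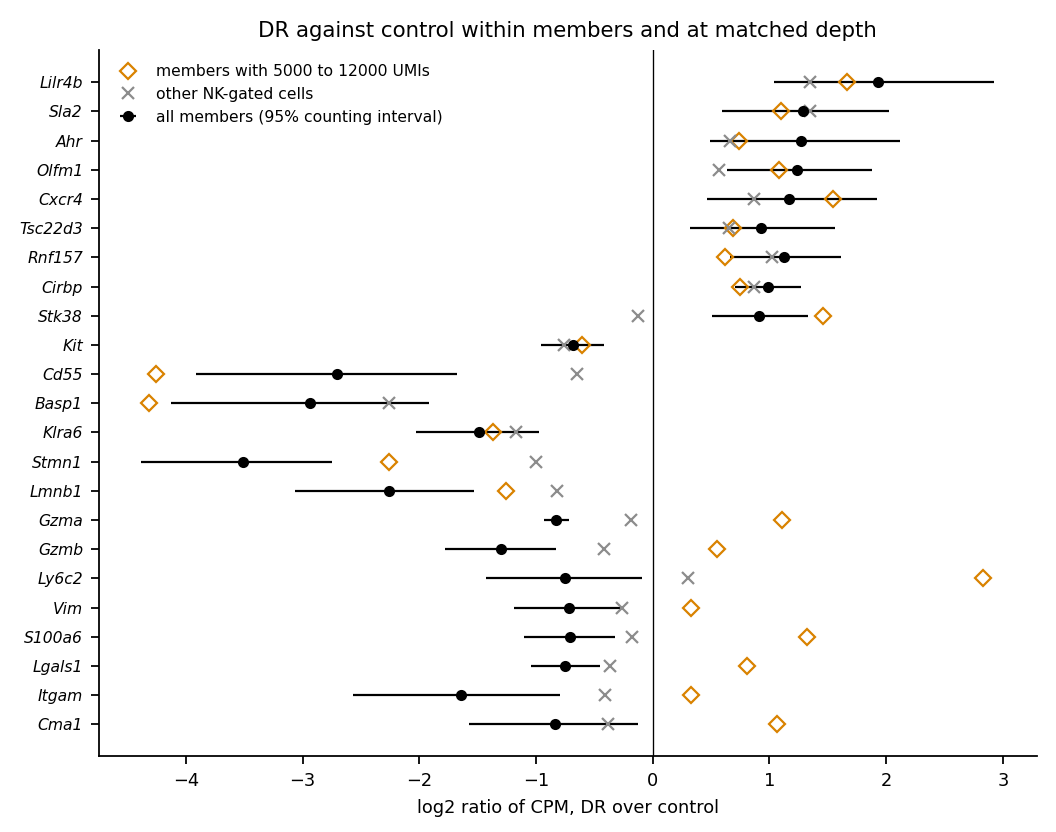
log2 ratio of CPM, DR over control, for genes in all members (black circles with exact 95% counting intervals), in members with 5000 to 12000 UMIs (open orange diamonds) and in the other NK-gated cells (grey crosses). Genes such as Lilr4b, Cirbp, Kit and Basp1 keep their side at matched depth, whereas for Gzma, Gzmb, Ly6c2, Vim, S100a6, Lgals1, Itgam and Cma1 the diamonds lie right of 0. The diamonds come from 86 DR and 34 control members and are drawn without intervals.

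The 93 DR and 68 control members with Cd3d or Cd3g were set against the 27 and 18 with neither. Over all 5757 described genes, 11 were higher (0.191%) and 9 lower (0.156%) in both libraries, by the same call. With so few cells on the side without a Cd3 chain gene the intervals are wide, and a gene without a call is not shown to be alike. The median member had 10074 UMIs in DR and 12678.5 in control with a Cd3 chain gene, and 10365 and 11879 with neither. Batf3 stood at 307 CPM in DR and 317 CPM in control members with a Cd3 chain gene, and at 305 and 355 CPM in those with neither. Id3 stood at 107 and 159 CPM against 133 and 98.4 CPM, and Trbc1 at 688 and 795 CPM against 625 and 796 CPM. Of 122 described named genes, 8 were higher and 1 lower. The higher genes were Trbc2, at 350 and 371 CPM against 214 and 197 CPM, Tcrg-C4, at 133 and 124 CPM against 56.1 and 34.2 CPM, and Klf2, Gzmb, Ly6c2, Lgals1, Vim and Cma1. Vim stood at 64.4 and 94.5 CPM in DR and control members with a Cd3 chain gene, against 0 and 34.2 CPM in those with neither, and Cma1 at 27.8 and 47.3 CPM against 0 and 4.28 CPM. Gzma stood at 957 and 1955 CPM against 740 and 248 CPM, and passed in control alone. Klf2 stood at 169 and 236 CPM against 56.1 and 98.4 CPM, which in either case lay far below the 1353 and 1547 CPM of the other NK-gated cells. S1pr5 was lower, at 11.9 and 30.1 CPM against 42.1 and 64.2 CPM.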

How the data were processed

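The deposited values were whole-number counts of UMIs per gene and cell barcode, not normalized, in 10x Genomics matrix files for 1 DR and 1 control library. Per the file headers they were written by Cell Ranger 5.0.1, whereas the submitters' processing notes name Cell Ranger 2.1.1 and build mm10, a disagreement left as it stands. Members, gene lists and comparisons were chosen with earlier results of these data known. Filters removed 167 DR and 215 control barcodes. Counts were summed per group of cells and divided by all UMIs of those cells to give CPM, with exact Poisson intervals; ratios have exact conditional binomial intervals and shares Clopper-Pearson intervals, all at 95%. The interval of a ratio of ratios is a normal approximation on the log scale and needs at least 10 UMIs in each of 4 sums. The call rule was tested on simulated counts.

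In each comparison 12 genes were named in either direction, ranked by the interval end nearest 1, without rule, gate, mitochondrial, ribosomal, immunoglobulin, receptor constant and haemoglobin genes, plus the rule genes, Kit, 2 whole lists and up to 4 genes of each other list. Further members of these lists are named to account for counts and were picked after their values were seen, as were the depth ranges of members, the split by Cd3 chain and the 55 genes above all groups. Cells were clustered with scanpy 1.11.5 and leidenalg 0.10.2 at resolution 1.0 on 2000 variable genes, 30 principal components and 15 neighbours. Scrublet ran at an expected rate of 0.05 with 2 simulated doublets for each cell. Gene positions came from GENCODE M21, which matched 32235 of 32285 identifiers, and promoters from RefSeq. Other steps used Python 3.11.15, numpy 2.4.6, scipy 1.17.1 and pandas 2.3.3. Barcodes without cells were not used here, so free RNA was not subtracted. A few genes of the lists are not reported here.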

Additional observations from a re-analysis of the deposited data

Results flagged for a closer look

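A few genes stood on opposite sides of the other NK-gated cells in the 2 libraries. Ikzf2, which encodes the transcription factor Helios, had a log2 ratio of members over other NK-gated cells of -1.20 in DR, from 11 UMIs and 8.50 CPM against 19.6 CPM, and of 0.74 in control, from 38 UMIs and 32.6 CPM against 19.5 CPM. Cxcl10, an interferon-induced chemokine gene, had a log2 ratio of 5.55 in DR, from 105 UMIs of which 98.1% came from 1 cell, and of -2.80 in control, from 2 UMIs. Pclaf, a DNA replication gene, had no UMI in DR members, which at a floor of 3 UMIs gives a log2 ratio of -1.46, and had a log2 ratio of 1.04 in control, from 68 UMIs of which 42.6% came from 1 cell. The difference between the libraries was not tested for any of the 3 genes.

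Cells outside the NK gate also met the rest of the rule: 15 of 1544 in DR and 7 of 593 in control carried Batf3 and at least 2 partner genes. In DR 8 of the 15 and in control 5 of the 7 had at least 2 UMIs of Tmem176a and Tmem176b, in DR 3 had a Cd3e UMI, and in DR 2 lacked both Ncr1 and Klrb1c.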

How the results depend on the processing

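Counts of genes against 298 higher and 319 lower in members, and 97 higher and 343 lower in DR members, depended on the scaling and on the threshold. Median-of-ratios scaling gave 187 higher and 190 lower in DR members, with 49.6% of calls higher against 22.0%, and 58.5% against 48.3% for members over others. A total without ribosomal and mitochondrial genes gave 562 higher in members and 203 higher in DR members, with 70.1% and 43.7% of calls higher, and moved the median ratio of members to others to 0.09 in DR and 0.11 in control. Describing genes from 5 CPM gave 167 and 529 for DR members, weighting cells equally 214 higher, and a lower threshold ratio gave 533 and 665 in members and 171 and 642 in DR members. The settings on the mean over all cells, the top member, Trac and cycling were chosen after seeing the data. Genes described at 20 CPM over members and others together made 36.3% of the calls of members over others higher. Without the top member for each gene 211 were higher and 408 lower. Among cells of 5000 to 12000 UMIs, 193 of the 298 and 193 of the 319 calls were shared, but 28 of the 97 and 105 of the 343 between libraries; the other settings kept these counts within 1.5-fold. Shares of members moved to 1.35% in DR and 0.80% in control after thinning, 3.27% and 0.919% at 5000 to 12000 UMIs (ratio 3.55), 3.23% and 2.17% with 1 partner gene, and in DR to 1.94% with 3 partner genes and 2.01% with 2 Batf3 UMIs. Of 5039 values of single results under alternatives, 4701 stayed close, 308 moved and 30 turned round. At 5000 to 12000 UMIs the log2 ratios of DR over control in members became 1.11 for Gzma, 0.55 for Gzmb, 2.83 for Ly6c2, 0.33 for Vim, 1.33 for S100a6, 0.81 for Lgals1, 0.33 for Itgam, 1.06 for Cma1, 0.063 for Tnni1, 0.063 for Top2a, 0.27 for Isg15 and -0.26 for Cxcl10, and those of control members over others -0.030 for Isg15, 1.22 for Cxcl10 and -0.76 for Batf. All of these ratios use the 34 control members of that range and are given without intervals. With at least 2 Batf3 UMIs, Vim became 0.12 for DR over control. For control members over others, leaving out cells with a Trac UMI gave -1.25 for Cenpf, -1.73 for Ube2c and -0.027 for Birc5; leaving out the top member for each gene gave -1.48 for Cenpf, -1.97 for Ube2c, -0.21 for Nr4a3, -0.16 for Isg15 and -0.26 for Birc5, and -0.17 for Cxcl10 in DR; and leaving out the 3 cycling members gave -2.36 for Cenpf, -2.26 for Ube2c, -0.17 for Isg15, -3.34 for Pclaf and -4.31 for Birc5. Leaving out members with a UMI of any T cell receptor constant gene could not be run, because Trbc1 was present in 100% of members. No paired analysis was possible because each group had 1 library.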

Other observations

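Gene lists outside the account above gave mixed counts in members against the other NK-gated cells. Of 8 immediate early genes 4 were higher and 2 lower, with Egr1 at 30.9 CPM in DR and 67.8 CPM in control members against 9.60 and 15.5 CPM, and 42.5% of its UMIs in DR members from 1 cell. Of 7 tetraspanin genes besides Cd63, Tspan3 was higher, at 37.9 and 37.8 CPM against 9.52 and 8.49 CPM, and Cd9 and Tspan32 lower. Of 13 lysosomal genes Lamp1 was higher and Ctsd and Ctsc lower, and of 10 survival and death genes Bcl2a1b was higher, at 95.1 and 124 CPM against 25.2 and 47.6 CPM. Between libraries, 3 of 6 interferon response genes (Isg15, Bst2 and Irf9) were lower in DR members, but 1 of 6 under median-of-ratios scaling, among members of 5000 to 12000 UMIs, and without the 3 cycling members. Isg15 had a log2 ratio of -1.02 over all members, 0.27 at 5000 to 12000 UMIs and -0.091 without the cycling members. Of 6 glucocorticoid response genes 2 (Tsc22d3 and Cxcr4) were higher in DR members.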
